A study of Mus musculus with 2 samples.

Results

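Integrin and laminin genes were followed in mouse ovaries with and without the progesterone receptor (PR), a transcription factor that progesterone activates. The genes were chosen by symbol: all integrin alpha and beta genes, with the integrin beta-like genes, and all laminin alpha, beta and gamma chain genes that have a probe set of their own on the array. This gave 36 of the 18193 genes with a single-symbol probe set, 26 integrin genes and 10 laminin genes, read by 77 probe sets. Where a gene had several probe sets, the one with the highest mean signal on the log2 scale stood for it.

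Ovaries came from wild-type mice and from PR knockout mice of the C57BL/6 background, aged 24 to 28 days. All animals were primed with PMSG (pregnant mare serum gonadotropin, 5 IU), which makes follicles grow, and 48 h later given hCG (human chorionic gonadotropin, 5 IU), which starts ovulation. Tissue was taken 11 h after hCG, and 1 RNA sample per genotype was hybridized to 1 Affymetrix array. The labels give neither the part of the gene that is disrupted in the knockout nor the number of mice behind each RNA sample, and whole ovaries mix follicle, vessel, stroma and blood cells. Replicates are absent, so no difference could be tested and every value is a single measurement. In whole tissue, fewer cells of a type and less RNA per cell cannot be told apart.

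Integrins are receptors made of 1 alpha and 1 beta subunit that span the cell membrane and bind extracellular matrix or other cells. Laminins are trimers of an alpha, a beta and a gamma chain and form a sheet in every basement membrane, including the basal lamina that encloses the granulosa cells of an ovarian follicle. At ovulation this lamina breaks down at the follicle wall, and vessels and theca cells grow into the former follicle as it becomes a corpus luteum. Integrin and laminin genes are expressed both by the cells of the follicle and by those that enter it.

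Values are MAS5 signals, a linear intensity that was scaled to the same trimmed mean on both arrays. A gene was called measured where its signal reached the array's median over probe sets other than controls on at least 1 array. This floor was 36.2 for the wild type and 37.95 for the knockout, and 11316 genes passed it. The targeted gene Pgr lay near the floor in both genotypes (wild type 36.5, knockout 42.8 for the highest of 3 probe sets) and so gave no check of the genotype labels. Between probe sets of the same gene, the log2 difference had a root mean square SD of 0.25, or 1.19-fold, over 4771 genes. That spread describes probes and transcript forms and leaves out differences between animals.

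Of the 36 genes, 25 were measured, 16 integrins and 9 laminins. For all 25 both arrays reached the floor, so no fold of a brightest probe set is a lower bound. The signals of most were close on the 2 arrays. Only 1 of 25 was at least 1.5-fold higher in the knockout, and 0 of 25 were at least 1.5-fold lower. Over all measured genes 6.54% were at least 1.5-fold higher and 4.75% at least 1.5-fold lower, so with 25 genes these counts lie near the background. After median centring the shares over all genes were 5.15% and 5.70%, after quantile normalization 5.01% and 5.42%, and after removal of the loess trend 4.18% and 6.37%. None of the 25 was 2-fold apart in either direction, against 1.15% of measured genes that were at least 2-fold higher and 1.72% at least 2-fold lower. Differences are given on the log2 scale as knockout minus wild type, and where a pair of signals is given the wild type comes first. Of the 25 genes, 14 were higher and 11 lower, against 6534 higher and 4781 lower over all 11316 measured genes. The median difference was 0.01 over the 25 genes, against 0.06 over all measured genes. Centring on that 0.06 turned the sign of several nearly level genes, which gave 8 higher and 17 lower. Without regard to sign, the median size of the log2 difference was 0.23 for the 25 genes and 0.21 for all measured genes.

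**Figure D1:**
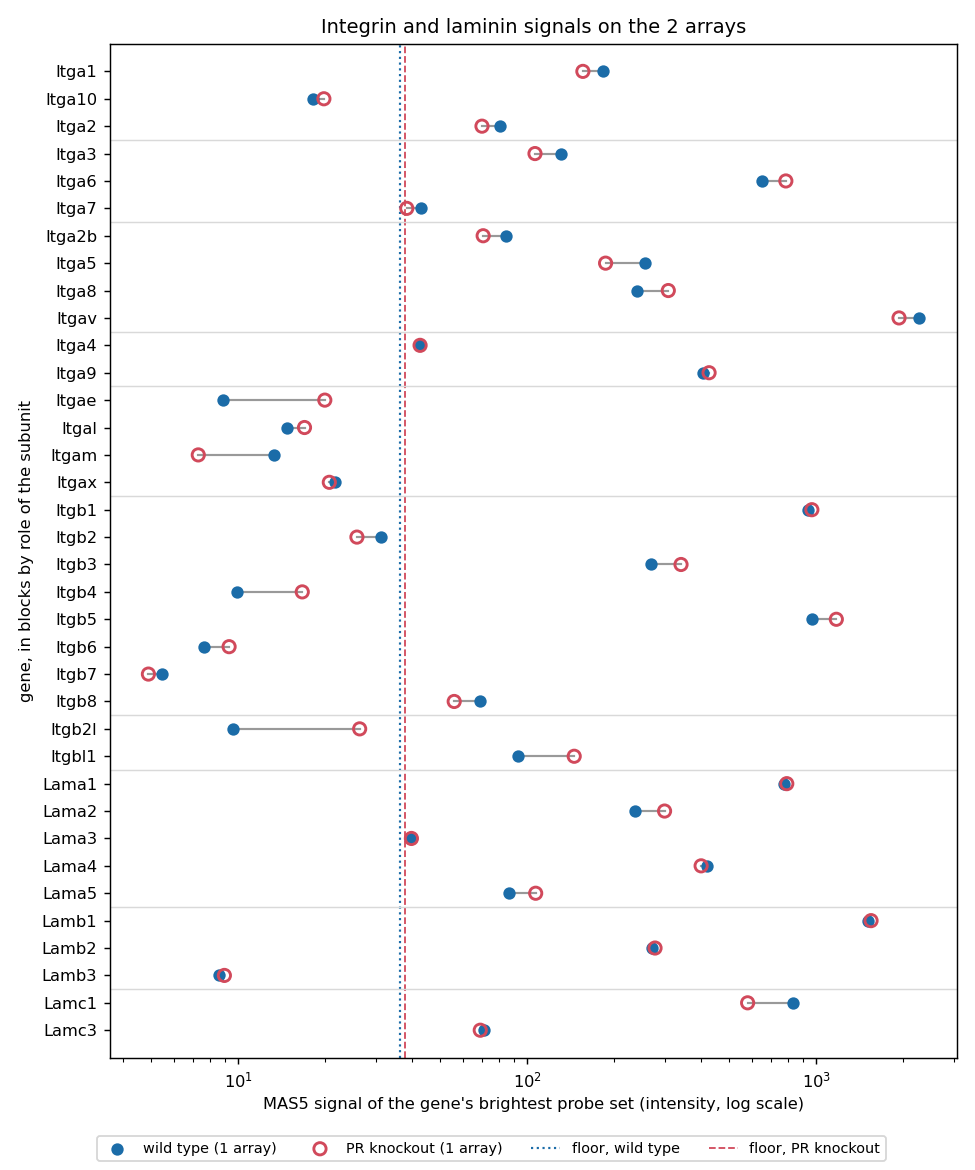
MAS5 signal (intensity, log scale) of the brightest probe set of each of the 36 integrin and laminin genes on the wild-type array (filled) and the PR knockout array (open), in blocks by role of the subunit, with each array's floor as a vertical line. The 11 genes left of the floors, among them all leukocyte alpha subunits on the array, were not measured, and the largest gap right of the floors is that of Itgbl1 (92.9 and 146).

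The alpha subunits that bind collagen showed small differences. Itga1, the alpha subunit of a collagen receptor of smooth muscle and stromal cells, had a signal of 183 in wild-type and 156 in knockout ovaries, a log2 difference of -0.23. Its other measured probe set went the other way, at 0.17. Itga2, the alpha subunit of a collagen receptor of platelets and epithelia, gave 80.7 and 69.8, a log2 difference of -0.21. For both genes the difference was thus no larger than the spread between probe sets of a gene. Itga10, a collagen receptor subunit of cartilage, was under the floor on both arrays.

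The laminin-binding alpha subunits did not share a direction. Itga6, whose product pairs with the beta subunits of Itgb1 or Itgb4 and is a main laminin receptor of granulosa cells, gave 648 in wild-type and 786 in knockout tissue. The log2 difference was 0.28, and its other probe set gave 0.35, so both lay on the higher side. Itga3, a laminin receptor subunit of epithelia, was lower in the knockout, with 131 and 106 and a log2 difference of -0.30. Its other 2 probe sets were under the floor. Itga7, the laminin receptor subunit of muscle, was dim at 43.1 and 38.4, with a log2 difference of -0.17 close to the floor. Itga6 stayed on the higher side under 8 alternative treatments of the signals (0.22 to 0.32) and Itga3 on the lower side (-0.42 to -0.04). Some of these, such as leaving out the floor, could not change either value.

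Among the alpha subunits that recognise the arginine-glycine-aspartate (RGD) motif of fibronectin and vitronectin, Itga5 differed most by its brightest probe set. Itga5, the alpha subunit of the main fibronectin receptor, gave 255 in wild-type and 187 in knockout ovaries, which is 1.36-fold lower. Of all measured genes, 7.67% were at least as far apart in that direction. Its 2 other measured probe sets gave log2 differences of -0.60, with the knockout under the floor, and -0.05, so the sign was shared and the size was not. With probe sets whose ID ends in _s_at, _x_at or _a_at left out, Itga5 was read by a dimmer probe set. The log2 difference was then -0.05. Itgav, whose product pairs with several beta subunits, gave 2267 and 1935, a log2 difference of -0.23. Its second probe set gave -0.43, and the third, with 36.8 and 31.9, lay at the floor and gives no usable difference. Itga2b, the alpha subunit of the platelet fibrinogen receptor, was also lower, with 84.6 and 70.5 and a log2 difference of -0.26.

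Itga8 went the other way within this group. Its product is the alpha subunit of a receptor of mesenchymal and smooth muscle cells. It gave 239 in wild-type and 308 in knockout tissue, a log2 difference of 0.36. Its other probe set was dimmer but further apart, with 40.02 and 93.9 and a log2 difference of 1.23. Over the mean of both probe sets the log2 difference was 0.80, past 1.5-fold, so whether Itga8 passes that threshold depends on the probe set. The remaining alpha subunits, which bind VCAM-1, fibronectin or tenascin, were nearly level. Itga9 gave 405 and 426 and Itga4, near the floor, 42.5 and 42.6, with log2 differences of 0.08 and 0.01.

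The beta subunits were measured for 4 of 8 genes. Itgb1, the partner of most alpha subunits, was level at 936 and 966, with a log2 difference of 0.05 and its other measured probe sets at 0.10 and 0.20. Itgb5, which pairs with the alpha subunit of Itgav, was higher in the knockout at 966 and 1174, a log2 difference of 0.28. All 4 of its probe sets were measured and all lay on the higher side, with the others from 0.16 to 0.37. Itgb3, the other well-known partner of Itgav and the partner of Itga2b, had 269 and 341, a log2 difference of 0.34. A dimmer probe set of Itgb3 gave 49.7 and 37.5, the latter just under the floor, and went the other way, at -0.39. Itgb8, a further Itgav partner, gave 68.6 and 56.0, a log2 difference of -0.29. Among the measured beta subunits, then, Itgb5 and the nearly level Itgb1 had the same sign in every measured probe set. Itgb3 was split and Itgb8 rested on 1 dim probe set.

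The gene past 1.5-fold was Itgbl1. It encodes a secreted protein with repeats like those of integrin beta subunits and is no subunit of a receptor. Wild-type tissue gave 92.9 and knockout tissue 146, which is 1.57-fold higher, and 5.00% of measured genes were at least as far apart in that direction. Only 1 probe set reads it, and the call did not hold under 4 of 8 alternatives. It was under 1.5-fold after quantile normalization, after removal of the loess trend, with the 70th-percentile floor and with an offset, where log2 differences ran down to 0.27. Of the remaining alternatives only median centring could change the value, and it gave 0.59, barely past 1.5-fold. Without a floor and with either choice of probe sets the value is the same by construction.

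Promoter sequences are shown for Itga5 and Itgbl1, the genes with the largest log2 difference in each direction among those with 1 listed promoter, a difference above the probe set spread and the same sign in all measured probe sets. Each holds the 250 bases before and 50 after a gene start in GRCm38.p6, taken from RefSeq. The set of promoters at hand covered 24 of the 36 genes, although the RefSeq gene table held all 36. The Itga5 window is chr15:103366742-103367041 on the minus strand and the Itgbl1 window chr14:123659890-123660189 on the plus strand. Capitals mark a GC box (GGGCGG), an AP-1 site (TGANTCA), a cAMP response element (TGACGTCA) or a steroid receptor half-site (AGAACA) on either strand.
Itga5: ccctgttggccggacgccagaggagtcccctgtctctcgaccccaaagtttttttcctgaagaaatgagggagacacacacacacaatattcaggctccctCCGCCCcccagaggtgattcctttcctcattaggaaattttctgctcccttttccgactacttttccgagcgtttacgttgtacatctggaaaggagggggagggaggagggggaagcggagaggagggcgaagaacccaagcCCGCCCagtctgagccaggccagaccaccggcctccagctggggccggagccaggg
Itgbl1: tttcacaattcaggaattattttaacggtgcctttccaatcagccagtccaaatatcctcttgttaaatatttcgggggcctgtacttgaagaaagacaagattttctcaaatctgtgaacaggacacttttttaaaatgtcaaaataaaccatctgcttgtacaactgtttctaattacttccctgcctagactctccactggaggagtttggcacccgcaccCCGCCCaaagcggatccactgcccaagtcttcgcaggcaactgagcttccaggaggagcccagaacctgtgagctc
The Itga5 window held 2 GC boxes and the Itgbl1 window 1, none overlapping another match, and neither window held the other motifs. GC boxes were found in 13 of the 27 promoters listed for these genes (48.1%) and in 35.7% of all 32851 listed promoters. Steroid receptor half-sites were found in 6 of the 27 (22.2%) against 19.0% of all, AP-1 sites in 3 (11.1%) against 7.81%, and cAMP response elements in 0 against 1.79%. Such matches describe letters only, and binding was not measured.

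**Figure D2:**
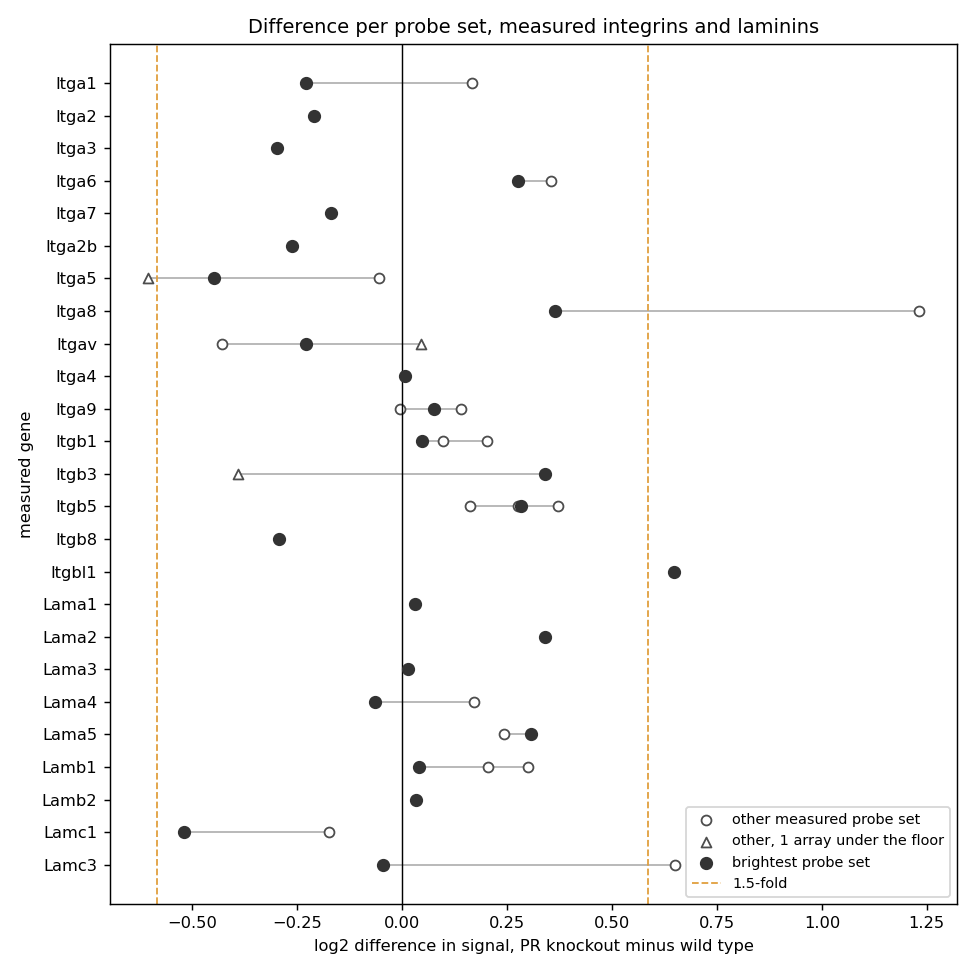
Log2 difference in signal, PR knockout minus wild type, for each measured probe set of the 25 measured genes, with the brightest probe set of a gene filled, the others open (triangles where 1 array was under the floor, which then sets the value) and 1.5-fold as dashed lines. Probe sets of Itga6, Itgb1 and Itgb5 lie close together, while those of Itga8 (0.36 and 1.23), Itgb3 (0.34 and -0.39) and Lamc3 (-0.04 and 0.65) lie far apart.

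The laminin genes differed by a median of 0.03 on the log2 scale over 9 measured genes. Of these, 6 were higher and 3 lower, against 6534 and 4781 of all 11316 measured genes. Lama1, the alpha chain of early embryonic basement membranes that is also part of the follicular basal lamina, was level, with 775 in wild-type and 791 in knockout tissue. Lama4, the alpha chain of vessel walls, was level too, at 418 and 400, with its other probe set at 0.17 on the log2 scale. Lama2, the alpha chain of muscle and stromal basement membranes, was higher in the knockout, with 236 and 299 and a log2 difference of 0.34. Lama5, the alpha chain of most adult epithelia and vessels, was likewise higher, with 86.6 and 107 and a log2 difference of 0.31. Another probe set of Lama5 gave 0.24, on the same side. Lama3, the alpha chain of surface epithelia, lay at the floor, at 39.4 and 39.8. Of the alpha chains, then, 2 lay above the probe set spread on the higher side and 3 within it.

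The beta chains hardly differed. Lamb1 gave 1507 and 1549 and Lamb2, the beta chain of vessel and neuromuscular basement membranes, 271 and 277, with log2 differences of 0.04 and 0.03. The other 2 measured probe sets of Lamb1 lay further up, at 0.20 and 0.30. The gamma chain gene Lamc1 had the lowest log2 difference of all measured integrin and laminin genes. Lamc1 encodes the gamma chain of most laminin trimers. Wild-type tissue gave 831 and knockout tissue 579, a log2 difference of -0.52 or 1.43-fold lower, just short of the 1.5-fold threshold. Of all measured genes, 5.84% were at least as far apart in that direction. The second probe set of Lamc1 was dimmer, at 57.2 and 50.7, and gave -0.17. Over 8 alternatives the log2 difference of Lamc1 ran from -0.58 to -0.35, lower in each. For so bright a probe set the 70th-percentile floor and the lack of a floor could not change the value. Lamc3, a less widely expressed gamma chain, was dim and undecided, with 71.0 and 68.9 in its brightest probe set but 47.0 and 73.7 in the other.

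Chains that assemble into 1 trimer had unequal differences on these arrays, by their brightest probe sets. Lama1, Lamb1 and Lamc1 form the first laminin described, and Lama4 or Lama5 join Lamb1 and Lamc1 in the laminins of vessel walls. Their log2 differences were 0.03, 0.04 and -0.52 for the first trimer, -0.07 for Lama4 and 0.31 for Lama5. Only Lamc1 among these lay below the probe set spread of 0.25 on the lower side.

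Genes of epithelial attachment and of leukocyte adhesion made up most of those under the floor. Of the 11 genes not measured, the signals of the brightest probe sets ran from 4.90 to 31.1. They include Lamb3, Itgb4 and Itgb6, which serve the attachment of epithelia, and for these 3 the highest signal was 16.7. Surface epithelium marker genes, by contrast, were measured for 8 of 9 members, with a median of -0.59. In the knockout 7 of 8 were lower, against 4781 of all 11316 measured genes. The 4 at least 1.5-fold lower were all keratins, Krt7, Krt8, Krt18 and Krt19 (-1.66, -1.18, -1.04 and -0.62). Msln gave -0.56, Upk3b -0.14, and Upk1b 0.16 with its other probe set at -0.58. Epcam lay at the floor and Lrrn4 under it. The summed signal of the list was 1404 for the wild type and 862 for the knockout. Whether that difference bears on Itga3 or other integrin genes was not tested.

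None of the subunits restricted to leukocytes reached the floor. These were the alpha subunits Itgae, Itgal, Itgam and Itgax and the beta subunits Itgb2 and Itgb7, with the highest signal 31.1 (Itgb2, wild type). Itgb2l, a relative of Itgb2, was under the floor as well. Leukocyte marker genes were measured for 10 of 14 members found, with a summed signal of 1375 (wild type) and 1354 (knockout) and a median of -0.11 (-0.24 to -0.03 over 8 alternatives). T-cell, B-cell and neutrophil markers (Cd3e, Cd79a, S100a8 and S100a9) were under the floor on both arrays. Of the platelet markers 2 of 7 were measured, Pf4 (168 and 146) and Gp1bb (42.6 and 30.1), and the summed signal of the list was 279.7 and 250.1. The part of platelets in the Itga2b and Itgb3 signals was not tested.

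**Figure D3:**
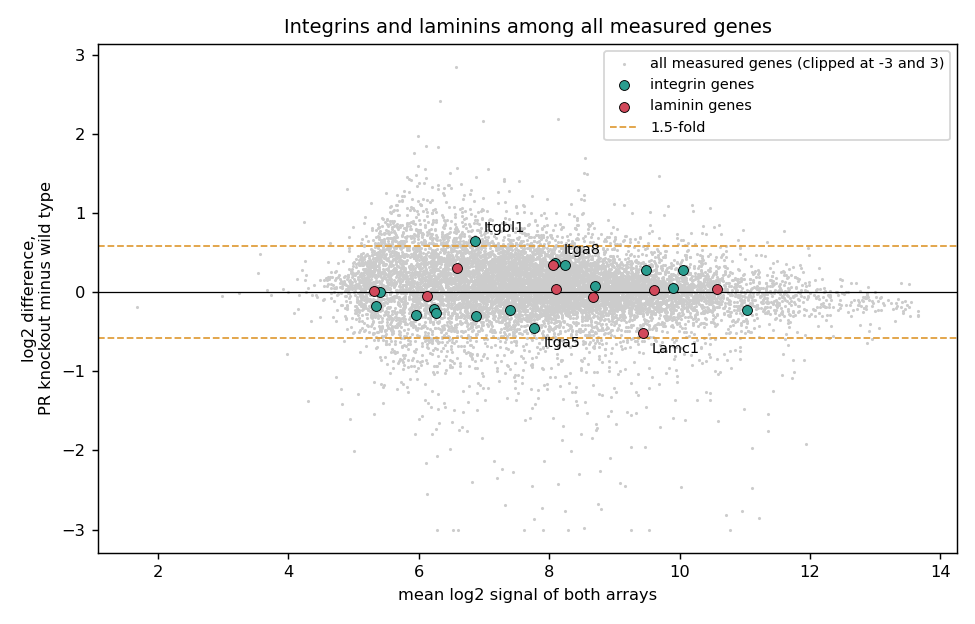
Log2 difference, PR knockout minus wild type, against the mean log2 signal of both arrays for all 11316 measured genes (grey, differences clipped at -3 and 3) and for integrin and laminin genes (coloured), with 1.5-fold as dashed lines. The 25 coloured points lie between -0.52 (Lamc1) and 0.65 (Itgbl1), and 1 of them is beyond a dashed line.

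Markers of the other cells in an ovary varied beside these genes. Over all 11316 measured genes, 6534 were above 0, 6.54% were at least 1.5-fold higher and 4.75% at least 1.5-fold lower. Granulosa markers were higher, with 8 of 10 measured genes above 0, 5 of them past 1.5-fold, a median of 0.44 (0.27 to 0.61 over 8 alternatives) and a summed signal of 16459 (wild type) and 18633 (knockout). Stroma markers had a median of 0.18 (0.12 to 0.28 over the same alternatives) with 2 of 8 at least 1.5-fold higher, and their summed signal was 17088 and 19259. Endothelial markers had a median of 0.17 with 1 of 12 at least 1.5-fold higher and a summed signal of 2840 and 3229. That median was only 0.04 without probe sets whose ID ends in _s_at, _x_at or _a_at. Smooth muscle and pericyte markers had a median of 0.03, or -0.03 after median centring, with 0 of 10 past 1.5-fold in either direction. Theca markers split, with 1 of 5 at least 1.5-fold higher and 1 lower, and the median over 5 markers of luteinizing cells, -0.12, had no stable sign (-0.34 to 0.07 over 8 alternatives). Oocyte markers had a median of 0.15 (0.07 after removal of the loess trend) with 0 of 8 past 1.5-fold. Oviduct epithelium markers were all under the floor, and of the adipocyte markers only Fabp4 was measured, at 335 and 71.0, while Adipoq and Lep were under the floor. Of the red cell markers 1 of 2 found was measured. By their brightest probe sets, Itga6, Itga8, Itgb3, Itgb5, Itgbl1, Lama2 and Lama5 lay above the probe set spread on the higher side. Itga2b, Itga3, Itga5, Itgb8 and Lamc1 lay beyond it on the lower side. The other 13 of 25 (52%) lay within it, against 58.2% of all measured genes. The upper quartile of all measured genes was 0.27. The part of cell makeup in these differences was not tested.

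Larger single differences were found among genes whose products work beside integrins and laminins, described here in 4 lists. Together the lists hold more measured genes (22, 18, 34 and 13) than the 25 integrins and laminins, which alone makes larger extremes likelier. The lists were chosen with earlier results of these data known, so their counts are description and no test. Their counts stand against the 6.54% and 4.75% of all measured genes past 1.5-fold on the higher and the lower side. Of 22 other basement membrane genes measured, 5 were past 1.5-fold on the higher side in the knockout and 1 on the lower, and the median was 0.21, or 0.11 after removal of the loess trend and 0.08 with the 70th-percentile floor. Smoc2 and Smoc1, matrix proteins that modulate growth factors, were 2.12-fold and 1.74-fold higher, the former with signals of 619 and 1314 and its other probe set at 1.94 on the log2 scale. Col4a4, a type IV collagen chain of specialised basement membranes, was 1.81-fold higher with 214 and 387, and its 3 probe sets lay between 0.86 and 0.95. Col4a5, a further such chain, was 1.59-fold higher, but its other probe set gave 0.08 and the mean of both 0.37 on the log2 scale. Frem1 (1.56-fold higher) and Fras1 (1.62-fold lower), which anchor epithelia to the matrix below, were dim. With an offset each was under 1.5-fold, Frem1 also after each of the 3 rescalings and Fras1 with the mean over probe sets. Nid1, the linker of laminin to collagen, gave 1026 and 1034 in its brightest probe set and 309 and 400.3 (0.37 on the log2 scale) in another. Col4a1, the main type IV collagen chain, was near level at 7569 and 7361, with its other probe set at 0.02.

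Among ligands of integrins other than laminins the lower side was the larger. Of 18 measured, 12 were lower in the knockout, against 4781 of all 11316 measured genes. Past 1.5-fold were 3 on the lower side and 1 on the higher, and the median was -0.19 (-0.24 to -0.11 over 8 alternatives). Ccn1, a matrix protein that growth factors and stretch induce and that binds several integrins, was 4.26-fold lower, with 1013 in wild-type and 238 in knockout tissue. Its 4 probe sets all showed the difference, the others from -2.75 to -2.06 on the log2 scale. Icam1, the endothelial ligand of the leukocyte integrins, was 2.37-fold lower with 157 and 66.2, though with the 70th-percentile floor its log2 difference was -0.30. Jam3, a junction protein, was 1.74-fold lower with 572 and 328. Vwf, the platelet-binding protein of vessel walls, was at least 1.51-fold higher by a wild-type signal just under the floor (35.8) and a knockout signal of 54.7. This call was lost under 4 of 7 alternatives, and among the others the choices of probe sets could not change the value. Of the classic ligands of Itga5 and Itgav, Fn1 (fibronectin) gave 1652 and 1455, a log2 difference of -0.18, and -0.54 in a dimmer probe set, while Vtn (vitronectin) was under the floor.

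Inside the cell, integrin tails are tied to actin by adaptor proteins. Of 34 measured adaptor and focal adhesion genes, 22 were lower in the knockout, against 4781 of all 11316 measured genes. Past 1.5-fold were 3 on the lower side and 0 on the higher, and the median was -0.07 (-0.12 to -0.06 over 8 alternatives). Vcl (vinculin), which strengthens the link to actin under tension, was 1.81-fold lower with 4610 and 2553, and its dimmer probe set gave -0.33. Zyx (zyxin), a sensor of stretched actin fibres, was 1.79-fold lower with 1284 and 717. Bcar1, a scaffold that Src phosphorylates, was 1.54-fold lower. That call was lost with an offset, with the mean over probe sets and without probe sets ending in _s_at, _x_at or _a_at. Of the adaptors that switch integrins on, Tln1 (talin) gave 981 and 968 and Fermt2, a kindlin, 1582 and 1461. Their log2 differences were -0.02 and -0.11, with other probe sets from -0.26 to 0.12 and from -0.27 to -0.15.

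Proteins that sit beside integrins in the membrane counted 4 of 13 genes past 1.5-fold on the lower side and 1 on the higher, with a median of -0.12. Without probe sets whose ID ends in _s_at, _x_at or _a_at the first count was 1 and the median 0.18. That filter left no probe set for Slc3a2 and Plaur, and read Sdc4 from its dimmer probe set. Cd47, a partner of Itgav-Itgb3 and a signal against phagocytosis, was 1.89-fold lower with 1612 and 855, and its 3 measured probe sets lay between -0.91 and -0.76. Slc3a2, which binds integrin beta tails and carries amino acid transporters, was 1.80-fold lower with 2613 and 1450. Sdc4, a heparan sulfate proteoglycan that acts with Itga5 in focal adhesions, was 2.19-fold lower by its brightest probe set, with 1477 and 673. The other probe set of Sdc4 was level at 108 and 113, so the 2 disagree. Plaur, the urokinase receptor, was 1.63-fold lower with 105 and 64.6 (under 1.5-fold with an offset), and Sdc3, another heparan sulfate proteoglycan, 1.57-fold higher with 248 and 390. Cd9, Cd81 and Cd151, tetraspanins that bind laminin receptors, gave 0.25, 0.22 and -0.12 on the log2 scale by their brightest probe sets. A dim probe set of Cd151 went from 64.8 to a knockout signal under the floor (26.4), a log2 difference of at most -0.77.

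**Figure D4:**
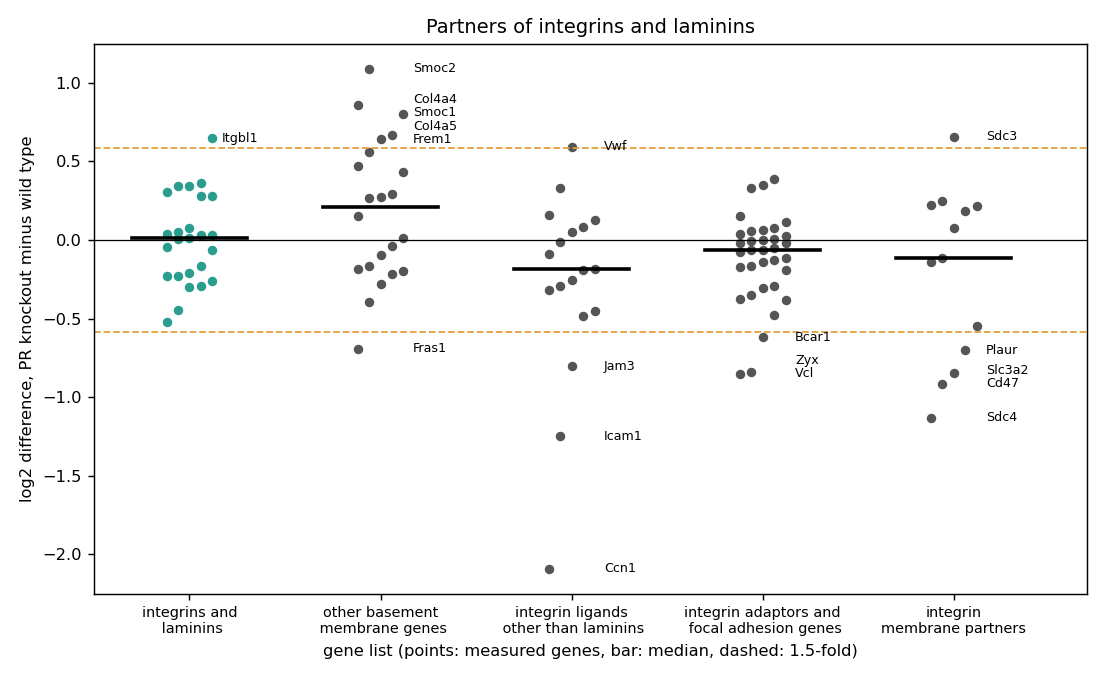
Log2 difference, PR knockout minus wild type, of each measured gene (points) in integrins and laminins and in 4 lists of their partners, with the median of a list as a bar and 1.5-fold as dashed lines. Integrins and laminins lie between -0.52 and 0.65, while Ccn1 (-2.09), Icam1 (-1.25) and Sdc4 (-1.13) lie well below and Smoc2 (1.09) above.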

How the data were processed

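RNA of 1 wild-type and 1 PR knockout ovary sample was hybridized to 1 Affymetrix mouse array each. The authors computed the deposited intensity values with MAS5 in Affymetrix Expression Console version 1, per the submitters' processing notes, and the trimmed mean of 150 on both arrays shows scaling by 1 factor. The labels' protocols name labelling at the 3′ end. Of 45037 probe sets that are not controls, 34945 carry a single gene symbol, 932 several and 9160 none in the platform annotation; only the first were used. The gene IDs of all 36 integrin and laminin genes were found in the RefSeq table of GRCm38.p6. Signals under the floor were set to it, and log2 differences are knockout minus wild type. Members, lists and thresholds were chosen with earlier results of these data known. Of 216 genes in 17 lists of partners and markers, 198 had a single-symbol probe set. All measured integrins and laminins are named, and from the partner lists the genes past 1.5-fold plus a few well-known level ones, the latter chosen after their values were seen. No test was possible, and the number of arrays limits precision. Alternatives were median centring, quantile normalization, removal of a loess trend, 3 treatments of low signals, 2 choices of probe sets and a 2-fold threshold. The calculation was tested on simulated data (Python 3.11.15, pandas 2.3.3, statsmodels 0.14.6).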

Additional observations from a re-analysis of the deposited data

How the results depend on the processing

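The number of integrins and laminins past 1.5-fold on the higher side, 1 as reported, was 0 after quantile normalization, after removal of the loess trend, with the 70th-percentile floor, with an offset of 32 and at a 2-fold threshold, and 2 with the mean over probe sets, where Itga8 joined Itgbl1. The number past it on the lower side was 0 under all 9 alternatives. The median log2 difference of integrin genes, -0.08 as reported, was -0.15 after removal of the loess trend, 0.075 with the 70th-percentile floor and 0.0056 without probe sets whose ID ends in _s_at, _x_at or _a_at; the floor and that filter leave fewer genes. The median of laminin genes lay between -0.05 and 0.05, and its sign turned under median centring, quantile normalization and removal of the trend. Of the 25 measured genes, 16 kept their sign under each alternative that could be computed for them. A kept sign is partly built in, since some alternatives cannot change a bright gene or a gene with 1 probe set. Median centring lowers each difference by 0.06 and gave 8 genes higher and 17 lower. Over 8 alternatives the membrane partners at least 1.5-fold lower numbered 1 to 5. Without probe sets ending in _s_at, _x_at or _a_at, Sdc4 was read by its dimmer probe set and turned to 0.075. No paired analysis was possible because each genotype has 1 array. With 1 array per genotype the spread between animals is unknown, and 5 of the 25 genes (Itga4, Itga7, Itgb8, Lama3 and Lamc3) lay under 2 times the floor on both arrays.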

Other observations

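The type IV collagen chains, which share the basement membrane with laminins, were looked at together after their values were seen. Col4a1 and Col4a2, which form the common network, had log2 differences of -0.04 and -0.28 between the knockout and the wild type. Col4a3, Col4a4, Col4a5 and Col4a6, the chains of specialised networks, had 0.27, 0.86, 0.67 and 0.56 by their brightest probe sets. Col4a3 (55.8 and 67.3) and Col4a6 (49.7 and 73.4) were dim. The second probe set of Col4a5 was near level, at 166 and 175 (0.08), while the other 2 of Col4a4 gave 0.87 and 0.95. The second probe set of Col4a6 went the other way, with 62.9 in the wild type and a knockout signal under the floor (27.2), which makes the log2 difference at most -0.73. For the second probe set of Col4a3 the wild type was under the floor (34.4 and 41.7), which makes it at least 0.20.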
